A study of Mus musculus with 8 samples.

Results

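Collagens are the main fibrous proteins of the extracellular matrix, and the collagen genes were examined here across 4 mouse models of endometrial cancer. The members were the gene symbols made of Col, a number, a and a number, without Col17a1. This gave 43 genes of the 24419 in the count table, where 44 symbols had this form. They were grouped as 11 fibrillar, 3 network, 6 basement membrane, 9 FACIT and 14 other collagens. Members were matched by name and not by level, although the members and gene lists were chosen with earlier results of these data known. Of the 43 genes, 41 had enough counts to be tested, and Col19a1 and Col22a1, both FACIT collagens, were left out of the tests. Their highest levels were 0.501 and 2.17 CPM, the count of a gene scaled to a common library size.

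Bulk RNA was sequenced as 2 libraries from each of the models TPM, TPMCa, TPMR1 and TPK. All models were grown from uterus organoids of CAG-Cas9-EGFP mice, in which the CAG promoter drives Cas9 and EGFP in most tissues, and were transplanted into the left uterus of nude mice, which lack T cells. All 4 carried edits that include an sgRNA against Trp53. TPM, TPMCa and TPMR1 also overexpressed Myc, TPMCa added a cDNA of Pik3ca E545K, and TPMR1 added an sgRNA against Pik3r1, which encodes the regulatory subunit of phosphoinositide 3-kinase. TPK had no Myc cDNA and carried the cDNA of another oncogene. The sgRNAs and cDNAs were delivered to the organoids by virus. The 2 libraries of a model came from 2 mice. The sample labels name organoids, whereas the methods of the study describe tumor tissue. The CAG-Cas9-EGFP mice were females aged 8 to 10 weeks, and the nude mice were females aged 8 weeks.

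Collagens are made of 3 chains wound into a triple helix, each chain the product of its own gene. Fibrillar collagens build the banded fibers of stroma, type IV collagens form the sheet of the basement membrane under epithelium and around vessels, network collagens form lattices, and FACIT collagens sit on the surface of fibrils. Chains are hydroxylated and folded in the endoplasmic reticulum, trimmed outside the cell and then crosslinked. In uterus and in tumors, fibroblasts make most fibrillar collagen, whereas endothelial and epithelial cells also make type IV collagen.

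Promoters are shown for the 4 members on which the results turn, 2 that were called and 2 that share a start region. A RefSeq window from 250 bases before to 50 bases after the start was given for 34 of the 43 members, as 37 windows on GRCm38.p6. Each window is written 5′ to 3′ on the strand of its gene, with capitals for matches on either strand to TATAAA (the TATA box), CCAAT (the CCAAT box), GGGCGG (the GC box) or TGANTCA (the AP-1 site).
Col7a1, chr9:108953336-108953635, plus strand: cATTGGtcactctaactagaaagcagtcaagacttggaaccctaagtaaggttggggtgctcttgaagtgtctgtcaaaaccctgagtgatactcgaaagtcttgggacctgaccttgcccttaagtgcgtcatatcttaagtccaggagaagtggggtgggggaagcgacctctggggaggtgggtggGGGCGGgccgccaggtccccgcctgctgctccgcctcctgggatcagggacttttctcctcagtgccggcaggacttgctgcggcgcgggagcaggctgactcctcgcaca
Col6a1, chr10:76725995-76726294, minus strand: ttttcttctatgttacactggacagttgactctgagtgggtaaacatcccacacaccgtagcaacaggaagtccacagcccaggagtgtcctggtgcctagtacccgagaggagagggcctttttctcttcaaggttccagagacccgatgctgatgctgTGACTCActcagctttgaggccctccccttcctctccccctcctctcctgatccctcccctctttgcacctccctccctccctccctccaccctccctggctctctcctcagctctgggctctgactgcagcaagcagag
Col4a1, chr8:11312777-11313076, minus strand: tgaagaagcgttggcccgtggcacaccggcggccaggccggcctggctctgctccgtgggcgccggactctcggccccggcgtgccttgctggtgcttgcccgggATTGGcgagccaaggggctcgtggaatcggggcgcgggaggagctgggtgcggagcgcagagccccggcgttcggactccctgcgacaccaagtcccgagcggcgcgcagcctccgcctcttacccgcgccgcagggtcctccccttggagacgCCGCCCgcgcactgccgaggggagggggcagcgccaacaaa
Col4a2, chr8:11312555-11312854, plus strand: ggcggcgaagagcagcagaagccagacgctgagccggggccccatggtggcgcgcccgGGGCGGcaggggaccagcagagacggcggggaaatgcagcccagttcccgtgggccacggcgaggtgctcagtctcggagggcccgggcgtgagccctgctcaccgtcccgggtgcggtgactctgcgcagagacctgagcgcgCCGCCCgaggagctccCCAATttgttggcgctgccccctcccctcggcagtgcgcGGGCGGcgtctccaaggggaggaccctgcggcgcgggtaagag

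The windows of Col4a1 and Col4a2 shared 78 bases, since the genes start 21 bases apart on opposite strands of chromosome 8. The Col4a2 window held 3 GC boxes and 1 CCAAT box, the Col4a1 window 1 of each and the Col7a1 window 1 of each. The GC box of the Col4a1 window lies in the shared bases and is also among the 3 of the Col4a2 window. Among the 37 collagen windows, 23 held a GC box, against 35.7% of all 32851 windows, and 12 held a CCAAT box, against 37.4%. A TATA box was found in 4 collagen windows, against 13.6% of all. The AP-1 letters occurred in 1 collagen window, that of Col6a1, against 7.81% of all. A match of letters is a description and not a binding site.

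Total counts per library lay between 15748396 and 26943611, and 3 counts stood for 0.116 to 0.198 CPM, which covers counting error only. TPMR1 replicate 1 stood apart in its collagens. It had the lowest level of the 8 libraries for 18 of the 41 tested members, and its summed fibroblast markers were 132 CPM, against 484 to 1984 CPM in the other 7 libraries. All 8 fibroblast and all 7 endothelial markers were detected in every library. The defining markers of epithelium, the cell type of the starting organoids, were high in TPM and TPK and low in TPMCa and TPMR1, as given with Col7a1. In bulk RNA, fewer cells of a type and less RNA per cell cannot be told apart.

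**Figure D1:**
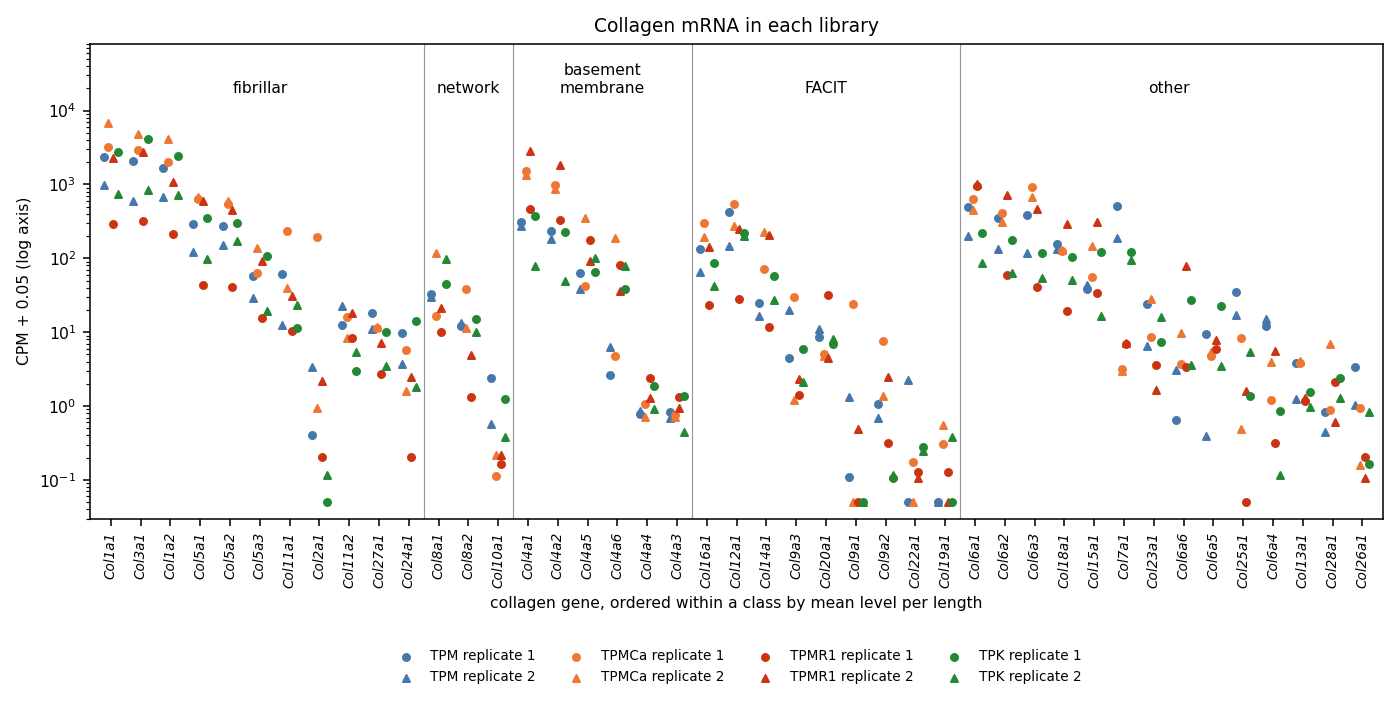
Collagen mRNA in each library, with CPM plus 0.05 on a log axis, 43 genes on the horizontal axis grouped by class, color for the model and shape for the replicate. Col1a1, Col3a1 and Col1a2 lay highest among the fibrillar genes, and Col7a1 split TPM and TPK from TPMCa and TPMR1.

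Col7a1 was the member that differed most clearly between models. It encodes type VII collagen, the anchoring fibril protein that ties squamous epithelium to the dermis. Its gene lies on chromosome 9 at 108953586 to 108984875 (GRCm38, plus strand). Its level was 515 and 190.3 CPM in TPM, 3.17 and 2.89 in TPMCa, 6.85 and 7.003 in TPMR1, and 121 and 96.05 in TPK. Every TPM and TPK library lay above every TPMCa and TPMR1 library. In the edgeR test for any difference among the 4 models, Col7a1 was called (adjusted p = 0.00480), as 1 of 41 members, where 7.32% of all 15875 genes tested were called.

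The log2 level of Col7a1 fell by 6.86 from TPM to TPMCa (SE 0.578, edgeR adjusted p = 0.00576). From TPM to TPMR1 it fell by 5.67 (SE 0.544, edgeR adjusted p = 0.00522). Both comparisons use the same TPM libraries. It was the only member called in either one, with 1 of 41 in TPMCa against a background of 3.48% of all genes and 1 of 41 in TPMR1 against 5.58%. Neither share lay above its background. Without either TPMCa library the call in TPMCa was lost, with edgeR adjusted p-values of 0.0682 and 0.0689. When TPM and TPMR1 were fitted without the other models, the call in TPMR1 was lost as well (edgeR adjusted p = 0.07198).

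TPK had a level of Col7a1 that was 4.57 above the mean of TPMCa and TPMR1 on the log2 scale (SE 0.392, edgeR adjusted p = 0.00152). TPM was 6.26 above the same mean (SE 0.415, edgeR adjusted p = 0.000894). TPK lay below TPM by a log2 difference of -1.70 (SE 0.456), which did not pass the adjustment (edgeR adjusted p = 0.653). TPMR1 was higher than TPMCa in both libraries, and that difference of 1.19 on the log2 scale did not pass either (edgeR adjusted p = 0.412).

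Markers of epithelium split TPM and TPK from TPMCa and TPMR1, as Col7a1 did. The 5 squamous markers summed to 4097 to 15610 CPM in TPM and 12322 to 19563 in TPK, against 3.23 to 6.08 in TPMCa and 1.28 to 12.2 in TPMR1. The 6 general epithelial markers summed to 2941 to 5498 CPM in TPM and 3236 to 4963 in TPK, against 23.7 to 73.3 in TPMCa and 6.47 to 27.4 in TPMR1. Between 2 and 3 of the squamous markers were at 0 in the TPMR1 libraries and none in the others. Between TPM and TPK the match was not complete. Both TPK libraries had a higher squamous sum than TPM replicate 2, at 4097 CPM, but less Col7a1. The part of these markers in the result for Col7a1 was not tested.

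**Figure D2:**
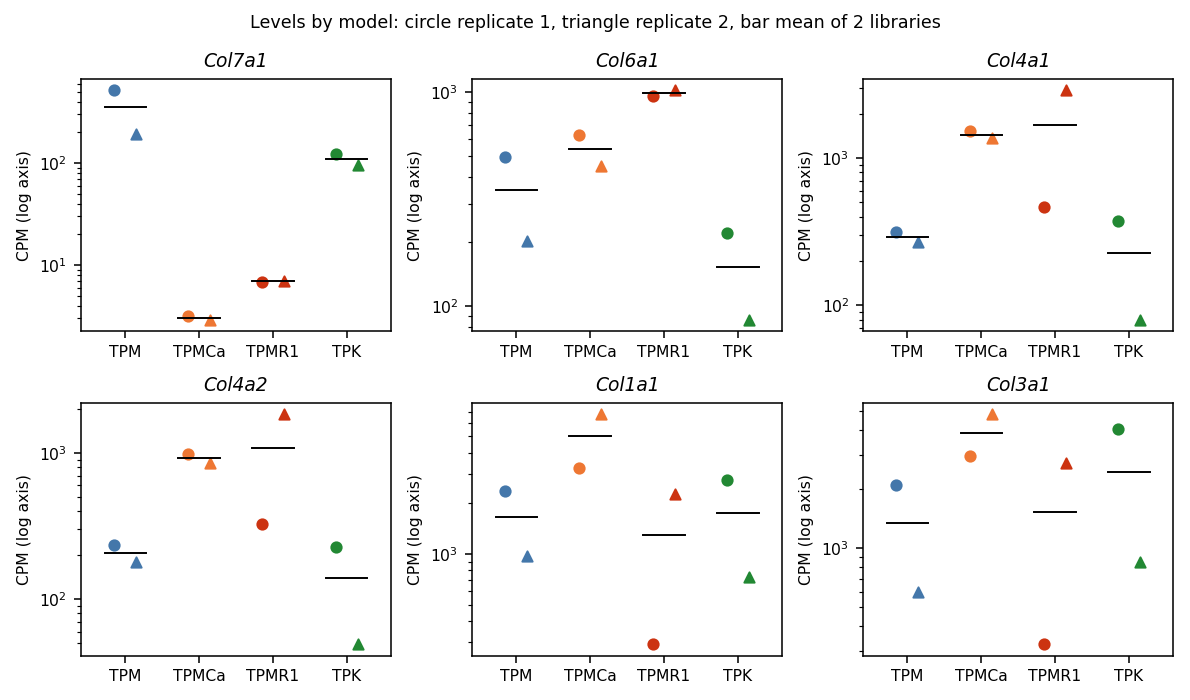
CPM of 6 collagens by model on log axes, with a point for each library and a bar at the mean of 2 libraries. Col7a1 lay between 96.05 and 515 CPM in TPM and TPK and between 2.89 and 7.003 in TPMCa and TPMR1, whereas for Col1a1 the points of TPM, TPMR1 and TPK overlapped below those of TPMCa, and for Col3a1 the points of TPMCa overlapped with those of TPK.

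Col6a1 was the other member called in a comparison. It encodes a chain of type VI collagen, which forms beaded filaments between cells and the basement membrane. Its level was 497 and 202 CPM in TPM, 627 and 451 in TPMCa, 957 and 1017 in TPMR1, and 220.1 and 86.2 in TPK. TPMR1 had the 2 highest libraries and TPK replicate 2 the lowest, while TPK replicate 1 lay above TPM replicate 2. TPK was below the mean of TPMCa and TPMR1 by a log2 difference of -2.25 (SE 0.555, edgeR adjusted p = 0.0415).

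In that comparison Col7a1 was called higher and Col6a1 lower, 2 of 41 members, against 14.4% of all genes called. The call of Col6a1 stood close to the threshold. It was lost without TPM replicate 2, either TPMCa library or either TPK library, with edgeR adjusted p-values between 0.0504 and 0.223. Without TPMR1 replicate 1 it held (edgeR adjusted p = 0.04605). TPMR1 lay above TPM by 1.5 (SE 0.582) in log2 units, which did not pass the adjustment (edgeR adjusted p = 0.187).

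The partners of Col6a1 in the type VI molecule did not follow it in 1 library. Col6a2 was at 355 and 132 CPM in TPM, 414 and 308 in TPMCa, 58.6 and 725 in TPMR1, and 175 and 63.5 in TPK. Col6a3, which encodes the longest of the chains, was at 381 and 118 CPM in TPM, 934 and 678 in TPMCa, 41.04 and 467 in TPMR1, and 117 and 54.2 in TPK. Both were lowest in TPMR1 replicate 1, the library where Col6a1 was second highest. Per length, the ratio of Col6a1 to Col6a2 was between 2.39 and 2.92 in 7 libraries and 31.0 in TPMR1 replicate 1. The ratio of Col6a3 to Col6a2 was 1.57 and 1.53 in TPMCa and between 0.448 and 0.748 in the other 6 libraries. Neither Col6a2 nor Col6a3 was called by edgeR in any of the 6 comparisons, and DESeq2 called Col6a3 in TPK against the mean of TPMCa and TPMR1. Their differences between TPK and the mean of TPMCa and TPMR1 were -1.66 (SE 1.01) and -2.40 (SE 1.03) on the log2 scale, with edgeR adjusted p-values of 0.302 and 0.165.

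The genes around Col6a1 on chromosome 10 were looked at in the same library after its value had been seen. Lss, which encodes lanosterol synthase, was at 220.2 CPM in TPMR1 replicate 1 and between 40.9 and 75.7 CPM in the other libraries. Mcm3ap, the neighbor of Lss on the side away from Col6a1, was at 80.6 CPM in that library and between 47.9 and 81.1 in the others. Ybey, which lies beyond Mcm3ap, was at 4.76 CPM there and between 1.52 and 6.13 in the others. Pcbp3, which lies beyond Col6a1, was between 3.25 and 11.4 CPM in all 8. Lss is separated from Col6a1 by Col6a2 and other genes.

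**Figure D3:**
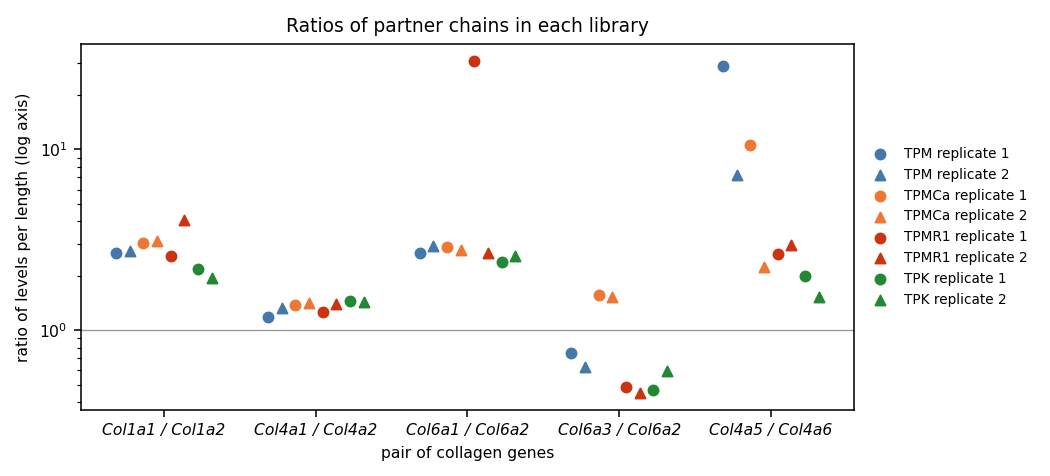
Ratios of levels per length for 5 pairs of collagen genes on a log axis, with a point for each library. Col4a1 to Col4a2 stayed between 1.19 and 1.45, whereas Col6a1 to Col6a2 rose to 31.0 in TPMR1 replicate 1 and Col4a5 to Col4a6 ran from 1.53 to 29.0.

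The basement membrane collagens Col4a1 and Col4a2, which together make the common type IV molecule of nearly all basement membranes, were high in TPMCa and TPMR1. Col4a1 was at 313 and 270.0 CPM in TPM, 1519 and 1356 in TPMCa, 466 and 2877 in TPMR1, and 373 and 79.6 in TPK. Col4a2 was at 234 and 180.2 CPM in TPM, 978 and 856 in TPMCa, 328 and 1833 in TPMR1, and 228 and 49.4 in TPK. For both genes, each of the 4 TPMCa and TPMR1 libraries lay above each of the 4 TPM and TPK libraries. TPMR1 held both the lowest and the highest of the 4 high libraries.

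None of these differences passed the adjustment in edgeR. Col4a1 was 2.30 higher in TPMCa than in TPM on the log2 scale (SE 0.974, edgeR adjusted p = 0.229) and 2.52 higher in TPMR1 than in TPM (SE 0.983, edgeR adjusted p = 0.188). Col4a2 was 2.14 higher in TPMCa (SE 0.941, edgeR adjusted p = 0.242) and 2.38 higher in TPMR1 (SE 0.949, edgeR adjusted p = 0.196). TPK lay below the mean of TPMCa and TPMR1 by -2.78 for Col4a1 and -2.84 for Col4a2, with edgeR adjusted p-values of 0.0939 and 0.0833.

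TPMR1 replicate 1 and the choice of libraries weighed on these values. Without that library, 6 of 42 members were called in TPK against the mean of TPMCa and TPMR1, where 18.7% of all genes were. Among them, Col4a1 and Col4a2 were called lower in TPK than in the mean of TPMCa and TPMR1 (edgeR adjusted p = 0.0294 and 0.0277). In a fit of TPM and TPMCa alone they were called higher in TPMCa (edgeR adjusted p = 0.0213 and 0.0248). Fitted so, 8.35% of all genes were called, against 3.48% with all 8 libraries, and in TPMR1 against TPM 0.353% were.

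The pair kept a nearly fixed ratio across libraries. Col4a1 spanned a 36.2-fold range over the 8 libraries and Col4a2 a 37.1-fold range, while the ratio of Col4a1 to Col4a2 per length stayed between 1.19 and 1.45. The exons of the pair overlap by 22 bases, which is under 0.5% of either gene. The 7 endothelial markers summed to 435 to 568 CPM in TPMCa and 176 to 681 in TPMR1, against 129 to 140 in TPM and 65.3 to 189 in TPK. Of their differences, 6 were positive and 1 negative in TPMCa against TPM, and 5 positive and 2 negative in TPMR1 against TPM. All 7 markers were above 0 in every library, and their part in the level of Col4a1 and Col4a2 was not tested.

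The other type IV genes also lie as head-to-head pairs. Col4a5 and Col4a6, on chromosome X with starts 1309 bases apart, make a type IV molecule found in smooth muscle and some epithelial basement membranes. Col4a5 was at 63.2 and 37.9 CPM in TPM, 42.2 and 354 in TPMCa, 179 and 90.5 in TPMR1, and 64.8 and 101 in TPK. Col4a6 was at 2.59 and 6.23 CPM in TPM, 4.75 and 188 in TPMCa, 81.00 and 36.2 in TPMR1, and 38.7 and 78.1 in TPK. The pair was highest in TPMCa replicate 2. Per length, the ratio of Col4a5 to Col4a6 was 29.0 and 7.21 in TPM, 10.6 in TPMCa replicate 1 and between 1.53 and 2.97 in the other 5 libraries.

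Col4a6 differed from TPM by 4.44 in TPMCa (SE 1.54), 3.73 in TPMR1 (SE 1.49) and 3.72 in TPK (SE 1.49) on the log2 scale. None passed the adjustment, with edgeR adjusted p-values of 0.162, 0.197 and 0.693. Col4a3 and Col4a4, whose starts are 72 bases apart on chromosome 1 and which are known from kidney basement membrane, stayed at or below 1.31 and 2.36 CPM in every library.

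As a class, the 6 basement membrane genes had a median log2 difference of 1.9 in TPMR1 against TPM, where the median of all genes was 0.03. Both TPMR1 libraries lay above both TPM libraries for 6 of 6, where 24.5% of all genes did so in that direction. For Col4a3 this rested on 0.889 CPM in TPMR1 replicate 2 against 0.783 in TPM replicate 1. The genes lie as pairs, and Col4a1 and Col4a2 kept a nearly fixed ratio, so the 6 are not separate observations. The median was 2.06 in TPMCa against TPM, where that of all genes was -0.01, and 2 of 6 did not overlap, against 29.1% of all genes. Without TPMR1 replicate 2 the first median was 1.24, and without TPMCa replicate 2 the second was 0.26. With all 8 libraries, edgeR called no member of the class in either comparison. DESeq2 called Col4a6 in TPMCa against TPM and Col4a1, Col4a2 and Col4a6 in TPMR1 against TPM.

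The fibrillar collagens held the most collagen RNA in 7 of the 8 libraries. Col1a1 and Col1a2 encode the chains of type I collagen and Col3a1 that of type III, the common fibers of uterine and tumor stroma. Per length, Col1a1, Col3a1 and Col1a2 were the most abundant of the 43 genes, with mean levels over the 8 libraries of 369.8, 235 and 129.8 RPKM, which is CPM divided by the exon length in kilobases.

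Col1a1 was at 2359 and 975 CPM in TPM, 3261 and 6738 in TPMCa, 292 and 2286 in TPMR1, and 2766 and 736 in TPK. Col3a1 was at 2104 and 601 CPM in TPM, 2969 and 4822 in TPMCa, 325 and 2738 in TPMR1, and 4067 and 853 in TPK. Col1a2 was at 1679 and 675 CPM in TPM, 2038 and 4113 in TPMCa, 215 and 1067 in TPMR1, and 2395 and 719 in TPK. All 3 genes were highest in TPMCa replicate 2 and lowest in TPMR1 replicate 1, and TPMR1 replicate 2 reached 4.97 to 8.43 times replicate 1. Both TPMCa libraries lay above both TPM libraries for all 3.

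With all 8 libraries, edgeR called no fibrillar gene in any comparison. DESeq2 called Col2a1 in TPMCa against TPM, in TPMR1 against TPMCa and in TPK against the mean of TPMCa and TPMR1, and Col11a2 in the last of these. For any difference among the models it called Col2a1 and Col11a1. Col1a1 was 1.58 higher in TPMCa than in TPM on the log2 scale (SE 1.08, edgeR adjusted p = 0.418), and Col3a1 was 1.53 higher (SE 1.17, edgeR adjusted p = 0.467). The difference of Col1a1 between TPMR1 and TPM was -0.37 (SE 1.05, edgeR adjusted p = 0.873). It turned to 0.46 without TPMR1 replicate 1 and to 0.43 without TPM replicate 1. The ratio of Col1a1 to Col1a2 per length lay between 1.94 and 4.06, lowest in TPK replicate 2 and highest in TPMR1 replicate 2.

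Of the 11 fibrillar genes, 8 had a positive difference in TPMCa against TPM, with a median of 1.42 on the log2 scale that ranged from 0.88 without TPM replicate 2 to 2.21 without TPM replicate 1, and 6 lay higher in both TPMCa libraries without overlap, where 29.1% of all genes did so. In TPMR1 against TPM the median was -0.40, with 4 positive and 7 negative differences. It was 0.43 without TPM replicate 1, 0.17 without TPMR1 replicate 1 and -2.39 without TPMR1 replicate 2. TPMR1 replicate 1 was the lowest library for 9 of the 11. Col5a2, whose product joins type V collagen at the core of fibrils and whose gene is the neighbor of Col3a1, was at 276 and 153 CPM in TPM, 546 and 603 in TPMCa, 40.8 and 455 in TPMR1, and 305 and 172 in TPK. It too was highest in TPMCa replicate 2 and lowest in TPMR1 replicate 1. The remaining 7 fibrillar genes, Col5a1, Col5a3, Col11a1, Col11a2, Col24a1, Col27a1 and Col2a1, had their highest library between 13.9 and 680.3 CPM.

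Col2a1, the main collagen of cartilage, was named after its values had been seen. It was at 0.361 and 3.37 CPM in TPM, 197 and 0.8904 in TPMCa, 0.155 and 2.11 in TPMR1, and 0 and 0.0659 in TPK. TPMCa replicate 1 held 3107 of its counts and TPMCa replicate 2 held 16. Col9a1, a FACIT chain that decorates type II fibrils, had 380 counts in the same library and at most 22 in any other. Col9a2, Col9a3 and Col11a1 were also highest there, at 7.600, 29.6 and 237 CPM. Between TPMCa and TPM, Col2a1 differed by 5.72 on the log2 scale (SE 2.39, edgeR adjusted p = 0.226). Without TPMCa replicate 1 this difference was -1.03.

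Of the 8 cartilage markers 6 were in the count table. Their sum was 152 CPM in TPMCa replicate 1 and 847 in TPMR1 replicate 1, against 35.3 to 79.8 in the other 6 libraries. Sox9 made up 98.0 CPM of the sum in TPMCa replicate 1. It was at 45.7 and 70.4 CPM in TPM and 52.4 and 44.3 in TPK. Hapln1 was at 8.68 CPM in TPMCa replicate 1 and 12.2 in TPMCa replicate 2. Comp and Matn3 were highest in TPMCa replicate 1, at 6.84 and 2.22 CPM, and Matn1 was highest in TPK replicate 2, at 0.791 CPM. In TPMR1 replicate 1 Acan, which encodes the cartilage proteoglycan aggrecan, made up 837 CPM of the sum, and Col2a1 was at 0.155 CPM. Acan was at 36.0 CPM in TPMCa replicate 1, 3.17 in TPMCa replicate 2 and 32.2 in TPMR1 replicate 2. It was at 6.02 and 6.06 CPM in TPM and at 0 in TPK. The part of these markers in the collagen levels was not tested.

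**Figure D4:**
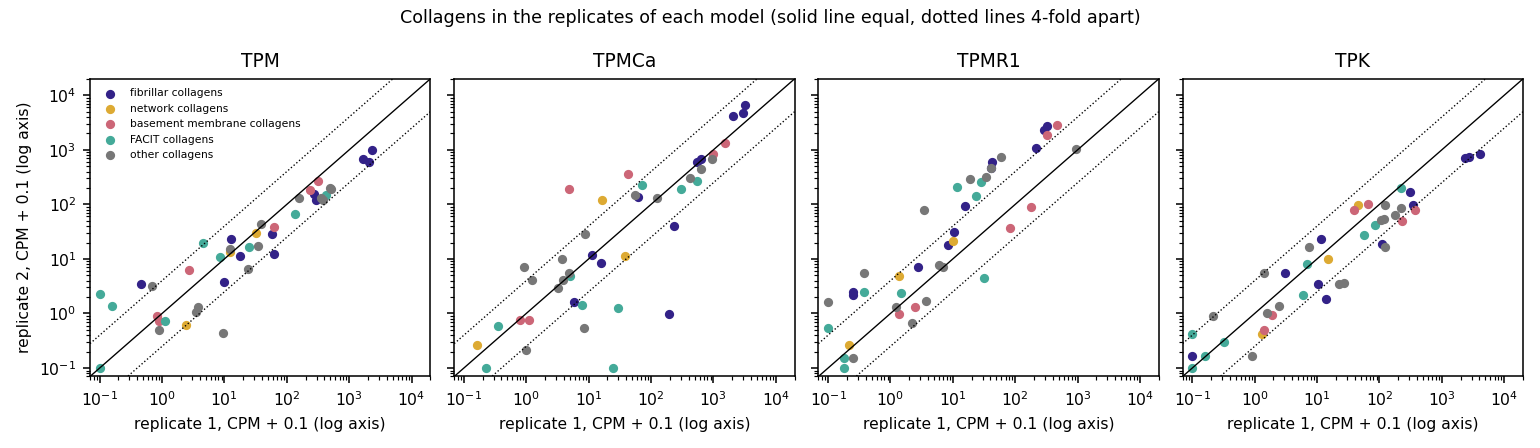
CPM plus 0.1 of each collagen in replicate 1 against replicate 2 of the 4 models, on log axes, with color for the class, a solid line at equal levels and dotted lines at 4-fold. In TPMR1 most genes of the fibrillar class lay above the upper dotted line, while in the other models most genes lay between the lines.

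The spread between the 2 libraries of a model was wider for collagens than for all genes in each of the 4 models. More than 4-fold lay between the libraries for 6 of 41 collagens in TPM, 11 in TPMCa, 23 in TPMR1 and 10 in TPK. The shares were 14.6, 26.8, 56.1 and 24.4% of collagens, against 4.72, 8.14, 17.0 and 6.12% of all genes tested. In TPMR1, 22 of the 23 were higher in replicate 2, and Col20a1 was higher in replicate 1. In TPK, 9 of the 10 were higher in replicate 1, with Col26a1 the exception. Summed collagen CPM was 3251 in TPMR1 replicate 1 and 15684 in replicate 2, and 12100.5 in TPK replicate 1 and 3723 in replicate 2.

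Fibroblast markers moved with this spread. Their sum was 1093 and 484 CPM in the TPM libraries, 1658 and 1984 in TPMCa, 132 and 829.9 in TPMR1, and 1133 and 739 in TPK. In each model the library with the higher sum also had the higher summed collagen CPM. The same held for the summed endothelial markers and for the summed macrophage markers, so this match was not particular to fibroblasts. Smooth muscle and pericyte markers did not follow it, since their sum was 820 CPM in TPM replicate 2 and 339 in replicate 1. The part of any of these markers in the spread was not tested.

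The median of the collagens depended on single libraries. In TPMCa against TPM, 30 differences were positive and 11 negative, with a median log2 difference of 1.13. Without TPMCa replicate 1 that median was 0.36, with 24 positive and 18 negative differences, and without TPMCa replicate 2 it was 0.58. The median was 1.53 without TPM replicate 1 and 0.87 without TPM replicate 2. In TPMR1 against TPM, 21 were positive and 20 negative, with a median of 0.03. Without TPMR1 replicate 1 that median was 0.25, and without TPMR1 replicate 2 it was -2.08. Without TPM replicate 1 it was 0.58, and without any of the remaining 5 libraries it lay between -0.15 and -0.13. The medians of all genes in these fits of TPMR1 with TPM lay between -0.08 and 0.08.

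Leaving out TPMR1 replicate 2 gave more calls, with 8 of 42 collagens for any difference among the models, where 19.1% of all genes were called. TPMR1 was then represented by the library with few fibroblast markers, which was assumed to vary as the other models did. In that fit, 4 of 42 collagens were called lower in TPMR1 than in TPM, namely Col7a1, Col5a2, Col12a1 and Col18a1, against 12.3% of all genes. In TPMR1 against TPMCa, 7 of 42 were called in that fit, against 8.24% of all genes. With both TPMR1 libraries edgeR called 0 of 41, and 0% of all genes. At an unadjusted p under 0.05 edgeR gave 5 of 41 in TPMR1 against TPMCa, against 11.8% of all genes, and DESeq2 called 3 at an adjusted p under 0.05, against 4.86%.

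Between TPK and TPM no collagen was called by edgeR, and 0% of all genes were. At an unadjusted p under 0.05, 5 of 41 passed, against 7.17% of all genes, and DESeq2 called 2 at an adjusted p under 0.05, against 1.51%. The 5 were Col7a1, Col6a4, Col9a2 and Col11a2, all lower in TPK, and Col4a6, which was higher. The median difference was -0.38 on the log2 scale over the 41 members and 0.01 over all genes. It turned to 0.21 without TPM replicate 1, with 21 positive and 21 negative differences. Without TPK replicate 1 it was -1.30, with 8 positive and 34 negative, and without TPK replicate 2 it was -0.23.

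The study called genes at an unadjusted p below 0.05 with a log2 change of more than 1. It used DESeq2 and compared TPK or TPM with TPMCa and TPMR1 together, whereas here these limits were set on edgeR p-values in all 6 comparisons. By them, 2 collagens were higher and 2 lower in TPMCa against TPM, where 7.28 and 11.7% of all genes passed in those directions. In TPMR1 against TPM, 5 were higher and 6 lower, against 7.53 and 12.6% of all genes. In TPMR1 against TPMCa, 1 was higher and 4 lower, against 4.64 and 5.88%. In TPK against TPM, 1 was higher and 4 lower, against 2.32 and 2.95%. Compared with the mean of TPMCa and TPMR1, TPK had 2 higher and 6 lower, against 15.5 and 9.71%, and TPM had 4 higher and 3 lower, against 13.5 and 6.54%.

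DESeq2 called more collagens than edgeR at an adjusted p under 0.05, and more of all genes. It called 9 of 41 for any difference among the models, where 30% of all genes were called. These 9 were Col2a1, Col4a1, Col4a2, Col6a1, Col6a4, Col7a1, Col8a2, Col9a2 and Col11a1. The tool called 3 in TPMCa against TPM and 8 in TPMR1 against TPM, where 16 and 18.1% of all genes were called. Compared with the mean of TPMCa and TPMR1, it called 9 in TPK and 7 in TPM, where 28.4 and 19.6% of all genes were called. Col4a1 and Col4a2 were among the members called by DESeq2 in each of these comparisons except TPMCa against TPM, where Col2a1, Col4a6 and Col7a1 were called.

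The make-up of collagen RNA differed most in TPMR1. The share of each class was taken from summed RPKM, which counts each molecule about once whatever its length. Fibrillar genes held 61.1% ± 5.46 (SD, n = 2) in TPM, 66.5% ± 9.72 in TPMCa, 31.2% ± 14.2 in TPMR1 and 73.9% ± 8.57 in TPK. Both TPMR1 libraries, at 21.2 and 41.2%, lay below the other 6.

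Basement membrane genes held 29.1 and 33.0% in the TPMR1 libraries and 18.6 and 14.1% in TPMCa. In TPM they held 7.18 and 13.1%, and in TPK 7.08 and 9.99%. The 2 TPMR1 libraries agreed on this share although their Col4a1 levels differed by 6.17 times. The class of other collagens held 46.8% in TPMR1 replicate 1, where Col6a1 was high, and between 9.01 and 22.8% in the other libraries. Per length, Col4a1 exceeded Col1a1 in both TPMR1 libraries, with ratios of 1.40 and 1.11, and lay between 0.0951 and 0.410 of it in the other 6. These shares are a description with no test.

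**Figure D5:**
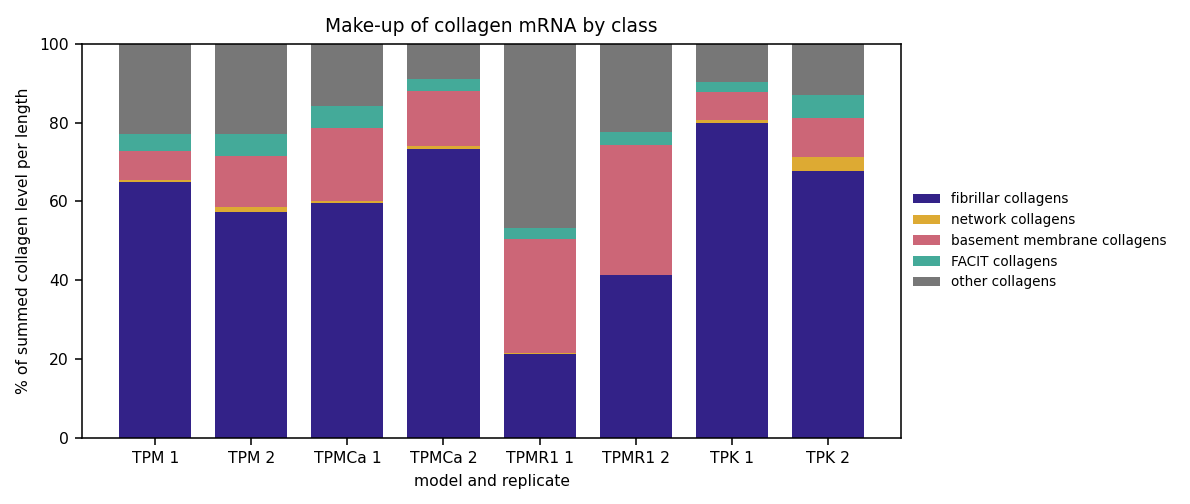
Share of each class in the summed level per length of 43 collagens, in percent, as stacked bars that start at 0, with 1 bar for each library. Basement membrane genes held 29.1 and 33.0% in TPMR1 and between 7.08 and 18.6% elsewhere.

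Among FACIT collagens, Col16a1 and Col12a1 had the highest mean levels per length, at 18.3 and 17.2 RPKM. Col12a1 encodes a chain that lies along type I fibrils. Col16a1 was at 135 and 65.7 CPM in TPM, 303 and 194 in TPMCa, 23.3 and 141 in TPMR1, and 86.2 and 41.7 in TPK. Col12a1 was at 424 and 147 CPM in TPM, 549.8 and 274 in TPMCa, 27.9 and 252 in TPMR1, and 218 and 201 in TPK. Both were lowest in TPMR1 replicate 1 and highest in TPMCa replicate 1.

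With all 8 libraries, edgeR called no FACIT gene in any comparison. DESeq2 called Col9a1 in TPK against TPM, Col9a1 and Col9a2 in TPK against the mean of TPMCa and TPMR1, and Col14a1 in TPM against that mean. For any difference among the models it called Col9a2. Of the 7 tested, 6 had a positive difference in TPMCa against TPM, with a median of 1.30 on the log2 scale, and Col20a1 had a negative one. Without TPMCa replicate 1 the median was -0.53, with 3 positive and 5 negative differences. In TPK against the mean of TPMCa and TPMR1 all 7 were negative, with a median of -1.16, where the median of all genes was -0.00205. That median was -0.22 without TPMR1 replicate 2, -0.58 without TPK replicate 2 and -0.64 without TPMCa replicate 1. Col20a1 was the FACIT gene with its highest level in TPMR1 replicate 1, at 31.6 CPM against 4.45 to 10.9 in the other libraries. Col14a1, another fibril-associated chain, ranged from 11.7 CPM in that library to 226 in TPMCa replicate 2.

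The network collagens Col8a1 and Col8a2, which encode the chains of type VIII collagen of vessel walls and other linings, were lower in TPMR1 than in TPM in every library. Col8a1 was at 32.4 and 29.6 CPM in TPM, 16.5 and 119.7 in TPMCa, 10.1 and 21.5 in TPMR1, and 45.3 and 96.8 in TPK. Col8a2 was at 12.04 and 13.2 CPM in TPM, 38.6 and 11.3 in TPMCa, 1.28 and 4.84 in TPMR1, and 14.97 and 9.95 in TPK. The differences of -0.97 (SE 0.878) and -2.05 (SE 0.816) on the log2 scale did not pass the adjustment, with edgeR adjusted p-values of 0.561 and 0.195. Col10a1, known from growth cartilage, had at most 3 counts in each TPMCa and TPMR1 library and 39 and 9 in TPM. With 3 counts as the floor in each library, its mean level was at least 8.02-fold higher in TPM than in TPMCa and at least 10.1-fold higher than in TPMR1. It was not called by edgeR against either (edgeR adjusted p = 0.162 and 0.161). DESeq2 called Col10a1 when TPM was compared with TPMCa and TPMR1 averaged. DESeq2 also called Col8a2, both in TPMR1 against TPMCa and for any difference among the models.

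With all 8 libraries, edgeR called none of the other collagens beyond Col7a1 and Col6a1. DESeq2 called Col23a1, Col25a1, Col26a1 and Col6a6 in TPMR1 against TPM, Col23a1 in TPMR1 against TPMCa, Col6a4 in TPK against TPM and Col6a6 in TPM when set against the mean of TPMCa and TPMR1. For any difference among the models it also called Col6a4. Col18a1 and Col15a1, which encode basement membrane zone collagens joined to sugar chains, ranged from 19.1 to 287 CPM and from 16.3 to 313 CPM, and both were highest in TPMR1 replicate 2. Col6a6, another type VI chain, was at 77.8 CPM in that library and at most 27.3 CPM in any other. Col25a1, a membrane collagen of neurons, was at 35.0 and 17.1 CPM in TPM and at most 8.42 CPM elsewhere. Col6a4, Col6a5, Col13a1, Col23a1, Col26a1 and Col28a1 stayed at or below 28.4 CPM.

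The genes that modify and fold collagen were described from a list of 20, all of them tested. In TPMCa against TPM, 18 differences were positive and 2 negative, with a median of 1.31 on the log2 scale where that of all genes was -0.01. P4ha1, a subunit of the prolyl hydroxylase that stabilizes the triple helix, rose by 2.52 (SE 0.434, edgeR adjusted p = 0.0336). Plod1, a lysyl hydroxylase that prepares crosslinks, rose by 2.98 (SE 0.576, edgeR adjusted p = 0.0457). These were 2 of 20 called higher, against 0.466% of all genes in that direction. Both calls were lost in 6 of the 8 fits that left out 1 library, those without a TPM, TPMCa or TPK library, with edgeR adjusted p-values up to 0.186 for P4ha1 and 0.231 for Plod1.

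In TPMR1 against TPM, 17 differences were positive and 3 negative, with a median of 1.01, which was 0.39 without TPMR1 replicate 2. P4ha1 rose by 2.14 (SE 0.428, edgeR adjusted p = 0.0391), as 1 of 20 against 1.08% of all genes called higher. This call was lost in 5 of the 8 such fits, those without a TPM or TPK library and that without TPMR1 replicate 2, with an edgeR adjusted p up to 0.214. P4ha1 was at 66.6 and 49.4 CPM in TPM, 449 and 214 in TPMCa, 205 and 306 in TPMR1, and 98.7 and 83.7 in TPK. Every TPMCa and TPMR1 library was above every TPM and TPK library for P4ha1, and for Plod1 and Plod2 as well. Unlike Col1a1, P4ha1 stayed high in TPMR1 replicate 1.

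Against the mean of TPMCa and TPMR1, 4 of the 20 were lower in TPK, where 4.06% of all genes were called lower. Plod2, the lysyl hydroxylase of fibrillar telopeptides, fell by 3.53 (SE 0.661, edgeR adjusted p = 0.0183). Plod1 fell by 2.84, P3h1 by 2.59 and P4ha1 by 1.67, with edgeR adjusted p-values of 0.0191, 0.0481 and 0.0344. P3h1 encodes a prolyl hydroxylase of a chaperone complex. Leaving out TPK replicate 2 ended all 4 calls, with edgeR adjusted p-values of 0.0968 for Plod2, 0.135 for Plod1, 0.284 for P3h1 and 0.232 for P4ha1. Leaving out TPMCa replicate 1 ended them too, with edgeR adjusted p-values between 0.0555 and 0.105. The call of P3h1 was also lost without either TPM library, TPMCa replicate 2 or TPK replicate 1, that of P4ha1 without either TPM library or TPK replicate 1, and that of Plod1 without TPK replicate 1. The TPM comparison shares those TPMCa and TPMR1 libraries, and in it 3 of 20 were lower, where 1.45% of all genes were, and they were Plod2, Plod1 and P4ha1 with differences of -2.79, -2.68 and -2.33 (edgeR adjusted p = 0.0431, 0.0279 and 0.0172). Without either TPM library these 3 calls were lost, with edgeR adjusted p-values between 0.101 and 0.283, without TPMCa replicate 1 those of Plod1 and Plod2 were, and without TPMCa replicate 2 that of Plod2 was.

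Of the other steps, 7 of the 8 proteases and enhancers that trim procollagen, all 5 lysyl oxidases that crosslink fibers and 9 of the 10 collagen receptors were tested. Of these only Ddr1, a collagen receptor tyrosine kinase of epithelium, was called. Ddr1 was 1.97 higher in TPM than in the mean of TPMCa and TPMR1 (SE 0.389, edgeR adjusted p = 0.0277), where 8.89% of all genes were called and 7.44% were called higher. The call was lost without either TPM or either TPK library, with edgeR adjusted p-values up to 0.1505. In TPMCa against TPM, the differences of 7 of 7 proteases and enhancers and 5 of 5 lysyl oxidases were positive, with medians of 1.59 and 1.93 on the log2 scale, and edgeR called none. Without TPMCa replicate 2 the first median was 0.995.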

How the data were processed

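RNA was extracted with TRIzol and sequenced from paired ends, and the authors had the reads trimmed and aligned them to mm10 with STAR. The deposited table holds counts, whole numbers of reads per gene symbol, whose counter and annotation are not given in the sources used here. A second deposited table, normalized with DESeq2, was not used. Groups were taken from the sample labels, and the column headings spell TPM as TPMS. Counts were normalized by TMM in edgeR 4.0.16, filtered with filterByExpr to 15875 genes and fitted with the quasi-likelihood method over all 8 libraries. The 6 comparisons and 1 test of any difference were adjusted by the Benjamini-Hochberg method over all genes tested, and a gene was called at an adjusted p under 0.05. CPM uses TMM library sizes, and RPKM divides by the exon length of GENCODE M21 on GRCm38, since levels of different genes can be compared only per length. A fold against counts of 3 or fewer in each library is a lower bound. The fit was tested on simulated data. The software was R 4.3.3, DESeq2 1.42.0, Python 3.11.15 and matplotlib 3.10.9.

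The members and gene lists were chosen with earlier results of these data known. Named with a value in every library were members called in a comparison, the 2 with the highest level per length in each class, and neighbors on a chromosome. Col1a2, Col2a1, Col6a3, Col9a1, Col9a2, Col9a3, Col10a1, Col11a1, Col20a1 and others outside this rule were named after their values had been seen. The limits on p and fold change that the study set on DESeq2 results were applied to edgeR results as a second rule. Alternatives were DESeq2, its size factors, library size alone, 2 other filters, separate fits of the models in a comparison, a replicate block, sums not divided by length and leaving out each library. Some engineered genes are not reported here.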

Additional observations from a re-analysis of the deposited data

How the results depend on the processing

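Counts of collagens called depended on the tool and on single libraries, and the cause was not tested. With DESeq2, the counts were 9 for any difference, 3 for TPMCa against TPM, 8 for TPMR1 against TPM, 3 for TPMR1 against TPMCa, 2 for TPK against TPM, 9 for TPK against the mean of TPMCa and TPMR1 and 7 for TPM against that mean, where edgeR gave 1, 1, 1, 0, 0, 2 and 1. DESeq2 also called more of all genes, between 1.51 and 30.0%. In the fit of only the models compared, 3 collagens were called for TPMCa against TPM and 0 for TPMR1 against TPM, where 0.353% of all genes were called. Leaving out 1 library gave 1 to 8 for any difference, 0 to 2 for TPMCa against TPM, 1 to 4 for TPMR1 against TPM, 0 to 7 for TPMR1 against TPMCa, 1 to 6 for TPK against the mean and 1 to 3 for TPM against the mean. The counts of 8, 4, 7 and 3 came without TPMR1 replicate 2, that of 6 without TPMR1 replicate 1 and that of 0 for TPMCa without either TPMCa library. The 6 were Col7a1, higher in TPK, and Col4a1, Col4a2, Col6a1, Col6a3 and Col9a2, lower. The other filters and scalings changed no count by more than 1.5 times. With library size alone, the median of all genes in TPK shifted to -0.11 against TPM and to -0.13 against the mean of TPMCa and TPMR1 on the log2 scale. Without division by exon length, the share of network collagens in TPMCa was 0.466%, of FACIT collagens in TPM 6.03% and of other collagens in TPM 20.1%, against 0.603, 5.03 and 22.8% per length. The called differences of Col7a1 and Col6a1 kept their sign in every fit.

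The replicate numbers are not said to pair the libraries, and deviations of same-numbered libraries correlated between -0.0687 and -0.00819. With the replicate block, the counts were 1, 1, 1, 0, 0, 2 and 1, as without it. Among the enzymes, the edgeR adjusted p with the block was 0.0559, 0.0601 and 0.0521 for P4ha1 in TPMCa against TPM, in TPMR1 against TPM and in TPK against the mean, 0.0623 for Plod1 in TPMCa against TPM, 0.0785 for Plod2 in TPM against the mean and 0.0879 for P3h1 in TPK against the mean, all called without it. Between 2 models, or 1 model and the mean of 2, the libraries are too few for an exact permutation test to pass 0.05, and no permutation test was run.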

Other observations

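Other cell types were followed by their markers. Smooth muscle and pericyte markers summed to 87.2 CPM in TPMR1 replicate 1 and 779 in TPMR1 replicate 2. Macrophage markers ran from 262 to 670.5 CPM in TPMR1 and from 983 to 4211 in TPMCa. Neutrophil markers summed to 12.2 and 472 CPM in the TPMR1 libraries and 1893 and 259 in TPMCa. Their sums were 446 and 803 CPM in TPM and 611 and 646 in TPK. Bone markers summed to 96.6 to 124 CPM in TPK, 48.5 to 66.3 in TPM, 17.0 to 29.4 in TPMCa and 15.8 to 21.5 in TPMR1. Of these 5 markers only 2, Runx2 and Bglap, had enough counts to be tested, and 3 were at 0 in TPK replicate 2. Markers of uterine stroma summed to 165 to 262 CPM in TPMR1 and 183 to 230.3 in TPMCa, against 44.4 to 89.0 in TPM and 95.3 to 154 in TPK. Although the sum was higher in TPK than in TPM, 4 of the 5 differences were negative and 1 positive. Their median was -1.48 on the log2 scale, and 2 of the 5 markers were at 0 in TPK replicate 2. Schwann cell markers stayed between 1.77 and 10.8 CPM, and mesothelial markers between 7.51 and 85.0.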
